A study of Mus musculus with 8 samples.

Results

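The Pilr and Cd300 genes encode paired immunoglobulin-type receptors of myeloid cells, and 8 of them were followed here in RNA from sorted pancreatic tumour cells: Pilra, Pilrb1, Pilrb2, Cd300a, Cd300lb, Cd300ld, Cd300lf and Cd300e. They were taken by gene symbol from the deposited count table, in which they make up 8 of 24537 rows, and all 8 were among the 14711 genes that passed the filter on low counts. The names were picked with their difference between the arms already known, so that difference is described below and carries no test.

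Paired receptors come as an inhibitory partner, whose tail holds tyrosine motifs (ITIMs) that recruit the phosphatases SHP-1 and SHP-2, and activating partners, which have a short tail and signal through an adaptor with an activation motif, DAP12 or the Fc receptor gamma chain. The partners arose by gene duplication, have closely similar outer domains, and sit side by side in the genome. In this set Pilra, Cd300a and Cd300lf are of the inhibitory type, while Pilrb1, Pilrb2, Cd300lb, Cd300ld and Cd300e are of the activating type. They are carried mainly by monocytes, macrophages, neutrophils and mast cells, and epithelial tumour cells are not a usual site of their expression.

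The mice of both arms were of strain FVB/NJ, developed pancreatic tumours from Cre-dependent alleles, and carried Rosa26LSL-Luc, a luciferase reporter that Cre switches on. Cre came from Pdx1-Cre, which is driven by the Pdx1 promoter in the pancreatic lineage. The anti-LIF arm (the mice behind KPCL-PCC_227_GA, then KPCL-PCC_310_GA and KPCL-PCC_354_GA, and last KPCL-PCC_391_GA) received gemcitabine with an antibody against the cytokine LIF, and the IgG arm (first KPCL-PCC_203_G and KPCL-PCC_343_G, then KPCL-PCC_345_G and KPCL-PCC_393_G) gemcitabine with a control antibody. Values listed mouse by mouse follow this order within each arm. Gemcitabine, a nucleoside analog used as chemotherapy, was given to all mice at 50 mg/kg on days 1 and 4, and either antibody at 25 mg/kg on days 1, 3 and 5, from 42 to 43 days of age. No group without gemcitabine is analysed here. Tumours were taken one mouse at a time on day 6, at about 48 days of age, and 1 polyA RNA library was made per mouse from the cells that flow cytometry sorted as EpCAM+.

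The libraries held 15135457 to 18972281 counts in genes. The sorted cells were labelled EpCAM+, and the epithelial markers were present but lower in the anti-LIF arm: the sum of 9 of them was 2099 to 3548 CPM (counts scaled to a common library size) in anti-LIF libraries and 5394 to 6464 CPM in IgG libraries. All 16 macrophage and monocyte markers were detected as well, and their sum was 23660 to 47100 CPM in anti-LIF libraries against 9793 to 13290 CPM in IgG libraries, that is 2.81% and 1.23% of the counts. KPCL-PCC_227_GA had the highest macrophage sum at 47100 CPM, and the other 3 anti-LIF mice had 23660 to 26660 CPM. Under TMM scaling, edgeR called 11 of the 16 macrophage markers higher and all 9 epithelial markers lower with anti-LIF. Summed neutrophil markers were at 240 ± 69.8 CPM with anti-LIF and 182 ± 80.4 CPM with IgG, and dendritic markers at 374 ± 150 CPM with anti-LIF and 234 ± 45.6 CPM with IgG (SD, n = 4 each). Summed lymphoid markers were at 41.1 ± 11.2 CPM with anti-LIF and 20.6 ± 6.77 CPM with IgG, and mast cell and basophil markers at 28.2 CPM with anti-LIF and 29.5 CPM with IgG. Of the 12 neutrophil markers, Ly6g, Mpo, Elane and Camp averaged under 1 CPM in both arms, while Csf3r averaged 111 CPM with anti-LIF and 34.3 CPM with IgG and was called higher (edgeR adjusted p = 0.00969). Ltf averaged 79.1 CPM with anti-LIF and 76.0 CPM with IgG, and S100a8 13.9 CPM with anti-LIF and 28.4 CPM with IgG, and neither passed. Mmp8 averaged 10.3 CPM with anti-LIF and 24.8 CPM with IgG. Its arms did not overlap, and it did not pass (edgeR adjusted p = 0.0779). Among the others, the lymphoid marker Ncr1 was at 0 in every library. In bulk RNA, fewer cells of a type and less RNA per cell cannot be told apart. The part of the macrophage share in the receptor values below was not tested, and values per macrophage marker are given beside them.

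Of the 8 receptors, 6 had more CPM in every anti-LIF library than in any IgG library, and no receptor was lower in every one. The background for such a pattern was 17.6% of the 14711 genes for all above, 18.2% for all below and 35.7% for either, and edgeR called 32.2% of the genes in either direction. Nothing is read from the receptors' count, since they were picked on this contrast. The median log2 fold change of the 8 was 1.14, against -0.0063 over all tested genes. The activating genes Cd300ld, Cd300lb, Pilrb2 and Pilrb1 had the highest folds. The inhibitory genes Pilra and Cd300a were less than 2-fold higher, and with libraries scaled to the macrophage markers their difference turned negative. Under that scaling Cd300ld, Cd300lb, Pilrb2 and Pilrb1 fell as well, to log2 fold changes of 0.47, 0.19, 0.23 and 0.20. The inhibitory Cd300lf and the activating Cd300e were lower on average in the anti-LIF arm, with overlapping arms in CPM. With libraries scaled to the epithelial markers their difference turned positive. The overlap differed in the deposited FPKM (counts scaled by transcript length and library total, without TMM). There the arms of Cd300a overlapped, with a lowest anti-LIF library at 13.72 and a highest IgG library at 14.3 FPKM. Cd300lf was then lower in every anti-LIF library, at most 71.95 FPKM, against at least 75.64 FPKM with IgG.

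**Figure D1:**
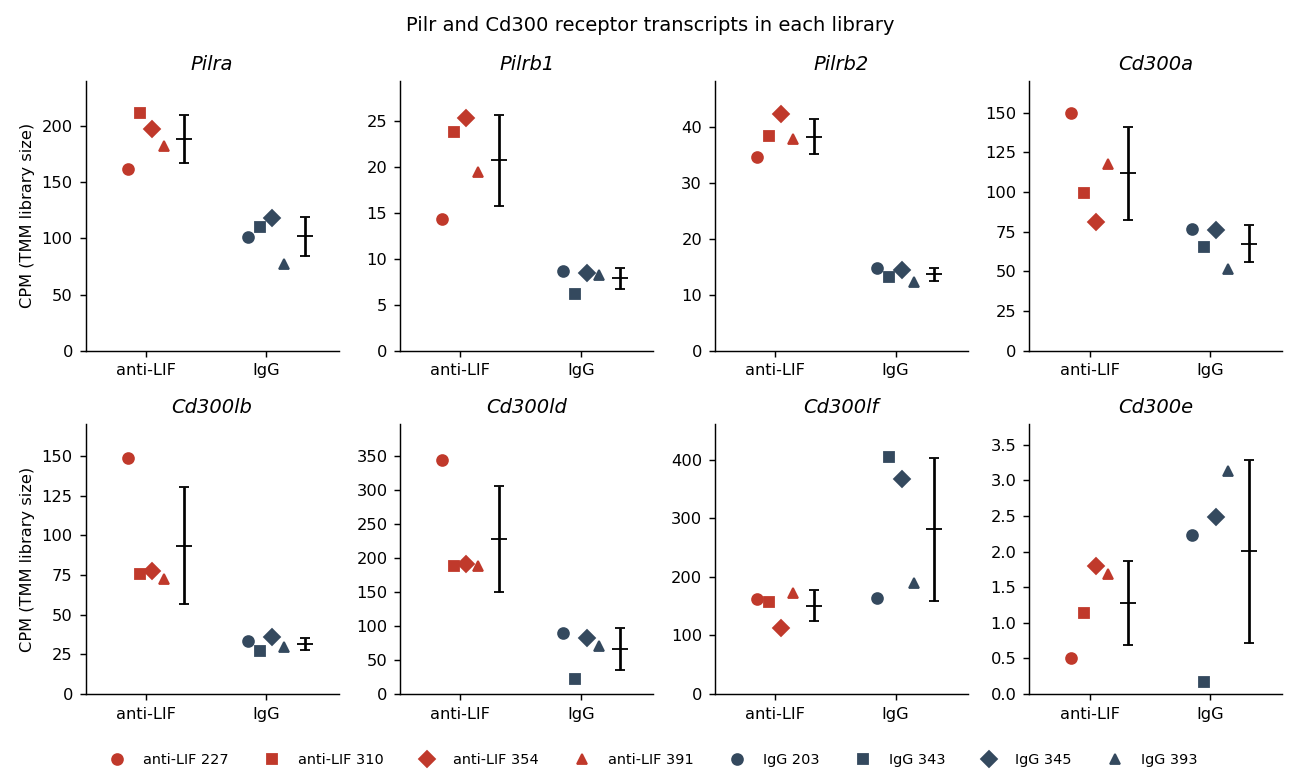
Each panel plots 1 receptor gene, with CPM at the TMM-adjusted library size on the y axis (from 0), 1 point per mouse (numbered as in the library names) and a bar for the mean ± SD of 4 mice. The anti-LIF points lie above all IgG points for Pilra, Pilrb1, Pilrb2, Cd300a, Cd300lb and Cd300ld, and the arms overlap for Cd300lf and Cd300e.

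The 3 Pilr genes lie next to each other on the minus strand of mouse chromosome 5 (mm10), within 49807 bases. Pilra spans 137821952 to 137836278, Pilrb1 spans 137852147 to 137858049 and Pilrb2 spans 137865829 to 137871758. Their outer domains are near copies, which bears on how reads can be assigned: over the coding sequence Pilrb1 and Pilrb2 were identical at 93.0% of the aligned bases, and Pilra was identical to Pilrb1 at 83.4% and to Pilrb2 at 82.3%. Coding bases 201 to 300, counted from the start codon of the GENCODE transcripts, are given with the bases that differ from Pilra in capitals.
Pilra: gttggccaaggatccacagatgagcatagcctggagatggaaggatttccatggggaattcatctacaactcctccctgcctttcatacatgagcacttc
Pilrb1: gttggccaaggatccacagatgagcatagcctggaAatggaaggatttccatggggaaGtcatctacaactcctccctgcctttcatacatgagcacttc
Pilrb2: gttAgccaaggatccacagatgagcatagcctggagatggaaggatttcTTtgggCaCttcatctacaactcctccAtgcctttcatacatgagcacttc
Pilrb1 differs from Pilra at 2 of these 100 bases and Pilrb2 at 6. Of all 50-base windows in the transcript, 29.9% of those of Pilrb1, 29.9% of those of Pilrb2 and 7.28% of those of Pilra occur letter for letter in a transcript of another gene, so the split of counts between Pilrb1 and Pilrb2 is uncertain and the counts of Pilra are less exposed.

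What separates the types is the end of the protein. Activating Pilrb receptors have a lysine in the membrane-spanning stretch, the charged residue through which such receptors hold DAP12, and the coding bases 574 to 636 show its codon in capitals in both genes.
Pilrb1: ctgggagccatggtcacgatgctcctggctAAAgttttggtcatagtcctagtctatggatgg
Pilrb2: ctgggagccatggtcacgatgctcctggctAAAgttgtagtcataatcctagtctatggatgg
The inhibitory receptors instead end in a long tail, and the last 150 coding bases of Pilra, Cd300a and Cd300lf are given with their in-frame tyrosine codons (TAT or TAC) in capitals.
Pilra: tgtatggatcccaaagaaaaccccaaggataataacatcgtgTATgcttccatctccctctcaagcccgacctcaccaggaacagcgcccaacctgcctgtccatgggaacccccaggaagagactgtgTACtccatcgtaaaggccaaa
Cd300a: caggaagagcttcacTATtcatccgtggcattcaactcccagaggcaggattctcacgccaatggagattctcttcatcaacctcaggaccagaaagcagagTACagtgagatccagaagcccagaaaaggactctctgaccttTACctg
Cd300lf: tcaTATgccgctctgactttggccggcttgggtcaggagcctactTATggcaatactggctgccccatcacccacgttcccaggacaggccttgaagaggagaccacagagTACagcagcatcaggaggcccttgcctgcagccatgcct
Pilra holds 2 such codons in this stretch, and Cd300a and Cd300lf hold 3 each.

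Pilra, the inhibitory receptor of its pair and a regulator of neutrophil recruitment in mice, had 162, 212, 198 and 182 CPM in the 4 anti-LIF mice, against 101, 110, 118 and 77.4 CPM in the 4 IgG mice. The lowest anti-LIF library stood above the highest IgG library. The means were 188 ± 21.5 CPM with anti-LIF and 102 ± 17.7 CPM with IgG (SD, n = 4 each), a 1.85-fold difference with a log2 fold change of 0.89 ± 0.14 (SE). Without any 1 of the 8 libraries it was 0.78 to 0.97. Exons of Pilra overlap Zcwpw1 on the other strand over 468 exonic bases, and the sources do not say whether counting used strand. Zcwpw1 had 23.3 CPM with anti-LIF and 16.2 CPM with IgG on average, far below Pilra. The same limit holds for Pilrb1, whose exons overlap the antisense gene Gm36551 over 97 bases. Exons of Pilrb2 overlap the antisense gene Gm43495 over 103 bases.

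Pilrb1, an activating receptor that signals through DAP12, was the least abundant Pilr gene in counts. It had 14.3, 23.8, 25.3 and 19.5 CPM in the 4 anti-LIF mice, against 8.66, 6.21, 8.41 and 8.22 CPM in the 4 IgG mice. The arms did not overlap, and KPCL-PCC_227_GA was the lowest of its arm. Its log2 fold change was 1.40 ± 0.20 (SE), or 2.63-fold higher with anti-LIF.

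Pilrb2, the other DAP12-coupled copy, had 34.6, 38.3, 42.3 and 37.9 CPM in the 4 anti-LIF mice, against 14.8, 13.2, 14.4 and 12.3 CPM in the 4 IgG mice. The arms did not overlap, and the libraries of each arm lay close together. It was 2.80-fold higher with anti-LIF, a log2 fold change of 1.48 ± 0.10 (SE). Since Pilrb1 and Pilrb2 can exchange reads, their sum is the safer value: it was 59.0 ± 7.95 CPM with anti-LIF and 21.6 ± 1.91 CPM with IgG (SD, n = 4 each), again with no overlap.

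Within a library the balance of the Pilr types can be read from counts scaled by transcript length. The ratio of Pilrb2 to Pilra was 0.293 ± 0.0226 with anti-LIF and 0.196 ± 0.0270 with IgG (SD, n = 4 each), and the arms did not overlap. The ratio of Pilrb1 to Pilra was 0.278 ± 0.0417 with anti-LIF and 0.203 ± 0.0542 with IgG, and here the arms overlapped. Relative to the inhibitory Pilra, the activating Pilrb2 was thus at a higher level in all 4 anti-LIF libraries than in any IgG library. Both sides of each ratio were picked on the same contrast, so these are descriptions.

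The duplication of the Pilr genes reaches into their upstream sequence. The stretch from 250 to 151 bases before the RefSeq start of each gene (GRCm38.p6, minus strand, 5′ to 3′) is given because all 3 hold the same match to the core of interferon response elements (GAAA, any 2 bases, GAAA), in capitals. The positions are chr5:137836429-137836528 for Pilra, chr5:137858200-137858299 for Pilrb1 and chr5:137871909-137872008 for Pilrb2.
Pilra: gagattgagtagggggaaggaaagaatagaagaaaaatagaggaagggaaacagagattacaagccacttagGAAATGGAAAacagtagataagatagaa
Pilrb1: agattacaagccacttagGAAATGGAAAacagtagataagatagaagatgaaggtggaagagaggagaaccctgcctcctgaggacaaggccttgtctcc
Pilrb2: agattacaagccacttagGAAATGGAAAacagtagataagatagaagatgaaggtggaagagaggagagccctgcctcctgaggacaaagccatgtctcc
The match starts 178 bases before the start of Pilra and 232 bases before the starts of Pilrb1 and Pilrb2, within the same copied stretch, so the 3 matches are not independent. On either strand of the 250 upstream bases, this core occurs in 2.98% of 32851 mouse promoters and in none of the 5 Cd300 receptors. TTGCNNAA, the core bound by C/EBP factors, occurs in 9.56% of promoters and in those of Pilra, Pilrb1, Pilrb2 and Cd300a. These are letter matches and not binding sites.

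The 5 Cd300 genes lie on chromosome 11 within 243952 bases, all on the minus strand except Cd300a on the plus strand. Cd300a spans 114890041 to 114904651, Cd300lb 114922781 to 114934386 and Cd300ld 114982446 to 114989886. Cd300e spans 115051917 to 115062039 and Cd300lf 115116214 to 115133992.

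Cd300a is an inhibitory receptor that binds phosphatidylserine and phosphatidylethanolamine on dying cells. It had 149.5, 99.3, 80.8 and 118 CPM in the 4 anti-LIF mice, against 76.5, 65.2, 76.1 and 51.6 CPM in the 4 IgG mice. The arms did not overlap, but by a small margin: anti-LIF KPCL-PCC_354_GA stood at 80.8 CPM and IgG KPCL-PCC_203_G at 76.5 CPM. In the deposited FPKM, which use no TMM factors, the arms overlapped. The log2 fold change was 0.73 ± 0.20 (SE), or 1.66-fold higher with anti-LIF, the smallest of the 6 receptors that stood higher. Cd300a shares its longest identical coding run with Cd300c2, the activating receptor of its pair, and this run of 140 bases (coding bases 289 to 428) is given because reads inside it cannot be assigned to either gene.
Cd300a: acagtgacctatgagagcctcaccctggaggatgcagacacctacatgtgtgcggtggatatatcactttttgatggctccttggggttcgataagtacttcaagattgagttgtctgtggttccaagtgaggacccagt
Over all 50-base windows of the transcript, 3.31% of those of Cd300a occur in another gene.

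Cd300lb, an activating receptor that couples to DAP12, had 149, 75.7, 77.7 and 72.4 CPM in the 4 anti-LIF mice, against 33.5, 27.3, 35.7 and 29.5 CPM in the 4 IgG mice. KPCL-PCC_227_GA stood far above its arm, and the other 3 anti-LIF mice were still above every IgG mouse. It was 2.97-fold higher with anti-LIF (log2 fold change 1.57 ± 0.24 SE), and no 50-base window of its transcript occurs in another gene.

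Cd300ld, which signals through the Fc receptor gamma chain, had the highest fold of the 8. It had 344.8, 189, 192 and 188 CPM in the 4 anti-LIF mice, against 90.1, 21.4, 82.5 and 69.9 CPM in the 4 IgG mice. KPCL-PCC_227_GA was the high library with anti-LIF and KPCL-PCC_343_G the low one with IgG, and the arms did not overlap. The log2 fold change was 1.79 ± 0.41 (SE), or 3.46-fold higher with anti-LIF.

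Cd300lf went the other way on average. This ITIM receptor binds ceramide and phosphatidylserine and is the entry receptor of murine norovirus. It had 161, 157, 113 and 172 CPM in the 4 anti-LIF mice, against 163, 404, 366 and 190.0 CPM in the 4 IgG mice. KPCL-PCC_343_G and KPCL-PCC_345_G carried the IgG excess, while KPCL-PCC_203_G and KPCL-PCC_393_G were close to the anti-LIF libraries. In the deposited FPKM, Cd300lf was lower in every anti-LIF library than in any IgG library. On average it was 1.86-fold lower with anti-LIF, a log2 fold change of -0.90 ± 0.30 (SE), and between -1.09 and -0.67 without any 1 library.

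Cd300ld and Cd300lf share coding sequence, 82.2% of aligned bases in all, and a run of 134 identical bases (from coding base 210 of Cd300ld), given because reads within it fit both genes.
Cd300ld: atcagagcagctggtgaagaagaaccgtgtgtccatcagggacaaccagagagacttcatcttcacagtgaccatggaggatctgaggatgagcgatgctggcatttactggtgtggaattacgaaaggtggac
Of all 50-base windows, 3.89% of those of Cd300ld and 6.43% of those of Cd300lf occur in other genes' transcripts. The summed level of the pair was 379 ± 87.8 CPM with anti-LIF and 347 ± 104.5 CPM with IgG (SD, n = 4 each), with overlapping arms. Their length-scaled ratio, Cd300ld to Cd300lf, was 1.65, 0.928, 1.31 and 0.843 in the 4 anti-LIF mice, against 0.425, 0.0408, 0.174 and 0.284 in the 4 IgG mice. No anti-LIF library came as low as an IgG library. IgG KPCL-PCC_343_G had both the highest Cd300lf and the lowest Cd300ld. How the authors' counting treated reads that fit both genes was not tested.

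The upstream sequences of the pair are given because their levels differ in direction, with the letters GAGGAAG (a core bound by PU.1, the myeloid factor) or their complement in capitals. They are 200 bases before the RefSeq starts (GRCm38.p6, minus strand), chr11:114989887-114990086 for Cd300ld and chr11:115133993-115134192 for Cd300lf.
Cd300ld: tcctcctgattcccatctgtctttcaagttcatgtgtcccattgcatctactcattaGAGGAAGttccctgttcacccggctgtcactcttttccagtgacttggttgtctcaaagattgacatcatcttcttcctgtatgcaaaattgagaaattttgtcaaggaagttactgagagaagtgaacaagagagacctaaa
Cd300lf: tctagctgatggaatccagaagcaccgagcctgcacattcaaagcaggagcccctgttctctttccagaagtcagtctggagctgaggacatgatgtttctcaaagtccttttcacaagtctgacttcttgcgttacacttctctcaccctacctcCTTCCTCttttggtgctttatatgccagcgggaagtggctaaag
GAGGAAG lies 143 bases before the start of Cd300ld and, on the other strand, 44 bases before that of Cd300lf. Over the 250 upstream bases it occurs in 10.6% of the 32851 promoters and in 4 of the 8 receptors, Pilra, Cd300a, Cd300ld and Cd300lf.

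Cd300e, whose human protein activates monocytes through DAP12, was near the lower limit of what these libraries measure. It had 0.511, 1.14, 1.79 and 1.68 CPM in the 4 anti-LIF mice, against 2.24, 0.165, 2.48 and 3.13 CPM in the 4 IgG mice. That is 79 counts in the 4 anti-LIF libraries and 149 in the 4 IgG libraries. The arms overlapped through IgG KPCL-PCC_343_G, and the log2 fold change of -0.65 ± 0.68 (SE) was smaller than its error. It was -1.03 without KPCL-PCC_343_G, -0.35 without KPCL-PCC_393_G and -0.38 without KPCL-PCC_227_GA.

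Compared per transcript length, in the deposited FPKM, the order of the receptors differed between the arms. With anti-LIF, Cd300ld was first at 70.4 ± 18.2 FPKM, followed by Cd300lf at 61.4 ± 10.5 and Pilra at 55.8 ± 9.37 (SD, n = 4), and the ranges of these neighbours overlapped. Cd300lb followed at 25.1 ± 7.88 FPKM, outside the range of Pilra, then Cd300a at 18.2 ± 3.66, Pilrb2 at 16.2 ± 2.20 and Pilrb1 at 15.8 ± 4.49, with overlapping ranges between neighbours. With IgG, Cd300lf was first at 123 ± 49.8 FPKM, and its lowest library at 75.6 FPKM exceeded the highest Pilra library at 36.7 FPKM. Pilra had 32.7 ± 4.96, Cd300ld 22.7 ± 10.9, Cd300a 12.1 ± 2.11 and Cd300lb 9.32 ± 1.25 FPKM with IgG, with overlapping ranges between neighbours. Pilrb1 at 6.48 ± 1.05 and Pilrb2 at 6.32 ± 0.595 FPKM with IgG overlapped each other but not Cd300lb. Cd300e was last in both arms, at 0.510 ± 0.248 FPKM with anti-LIF and 0.864 ± 0.557 FPKM with IgG. Cd300lb and Cd300lf have different transcript models in the deposited count and FPKM tables.

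**Figure D2:**
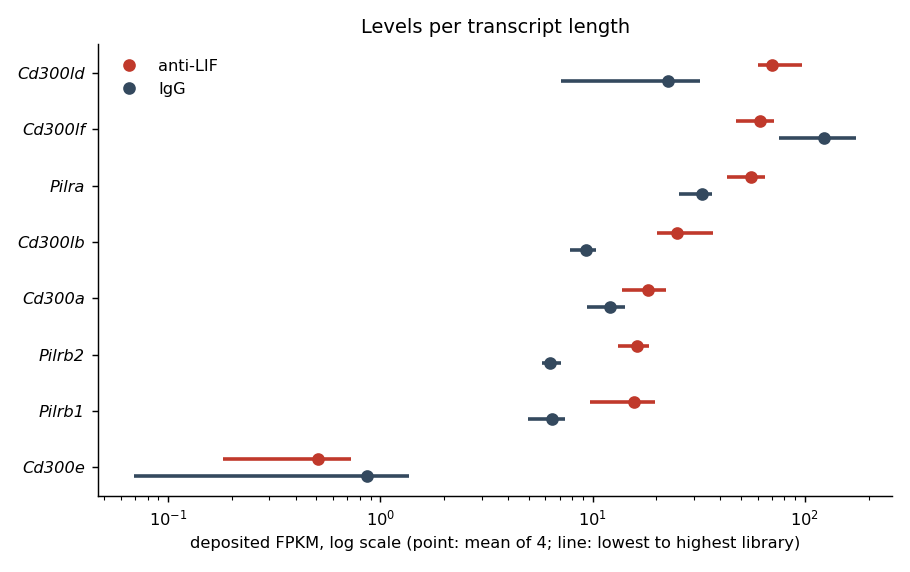
The deposited FPKM of the 8 receptors is plotted on a log axis, with the mean of 4 mice as a point, the lowest to highest mouse as a line, and anti-LIF above IgG in each row. Cd300ld, Cd300lf and Pilra lead with anti-LIF at 70.4, 61.4 and 55.8 FPKM, Cd300lf leads alone with IgG at 123 FPKM, and Cd300e is under 1 FPKM on average in both arms.

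Set against Cd300a within each library, Cd300lb and Cd300ld stood higher in the anti-LIF arm and Cd300lf lower. The length-scaled ratio of Cd300lb to Cd300a was 1.34 ± 0.287 with anti-LIF and 0.764 ± 0.109 with IgG, and that of Cd300ld to Cd300a was 3.90 ± 0.693 with anti-LIF and 1.88 ± 0.864 with IgG (SD, n = 4 each). The ratio of Cd300lf to Cd300a was 3.41 ± 0.532 with anti-LIF and 10.4 ± 4.25 with IgG. None of the 3 ratios overlapped between the arms. Cd300c2, the activating partner of Cd300a and no member of the set, did not share this: its ratio to Cd300a was 3.72 ± 1.06 with anti-LIF and 4.01 ± 0.458 with IgG, with overlapping arms.

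Levels were also set against the macrophage markers, whose sum was higher with anti-LIF. For each 1000 CPM of the 16 summed markers, Cd300lf had 5.32 ± 1.52 CPM with anti-LIF and 24.8 ± 12.5 CPM with IgG, and Cd300a had 3.80 ± 0.596 CPM with anti-LIF and 5.80 ± 0.875 CPM with IgG (SD, n = 4 each), both lower with no overlap between the arms. Cd300lb had 3.09 ± 0.253 CPM with anti-LIF and 2.71 ± 0.0626 CPM with IgG on this scale, and Cd300ld 7.61 ± 0.504 CPM with anti-LIF and 5.49 ± 2.26 CPM with IgG. Pilrb2 had 1.39 ± 0.462 CPM with anti-LIF and 1.18 ± 0.123 CPM with IgG, and Pilra 6.88 ± 2.46 CPM with anti-LIF and 8.83 ± 1.82 CPM with IgG. The arms overlapped for these 4 and for Pilrb1.

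**Figure D3:**
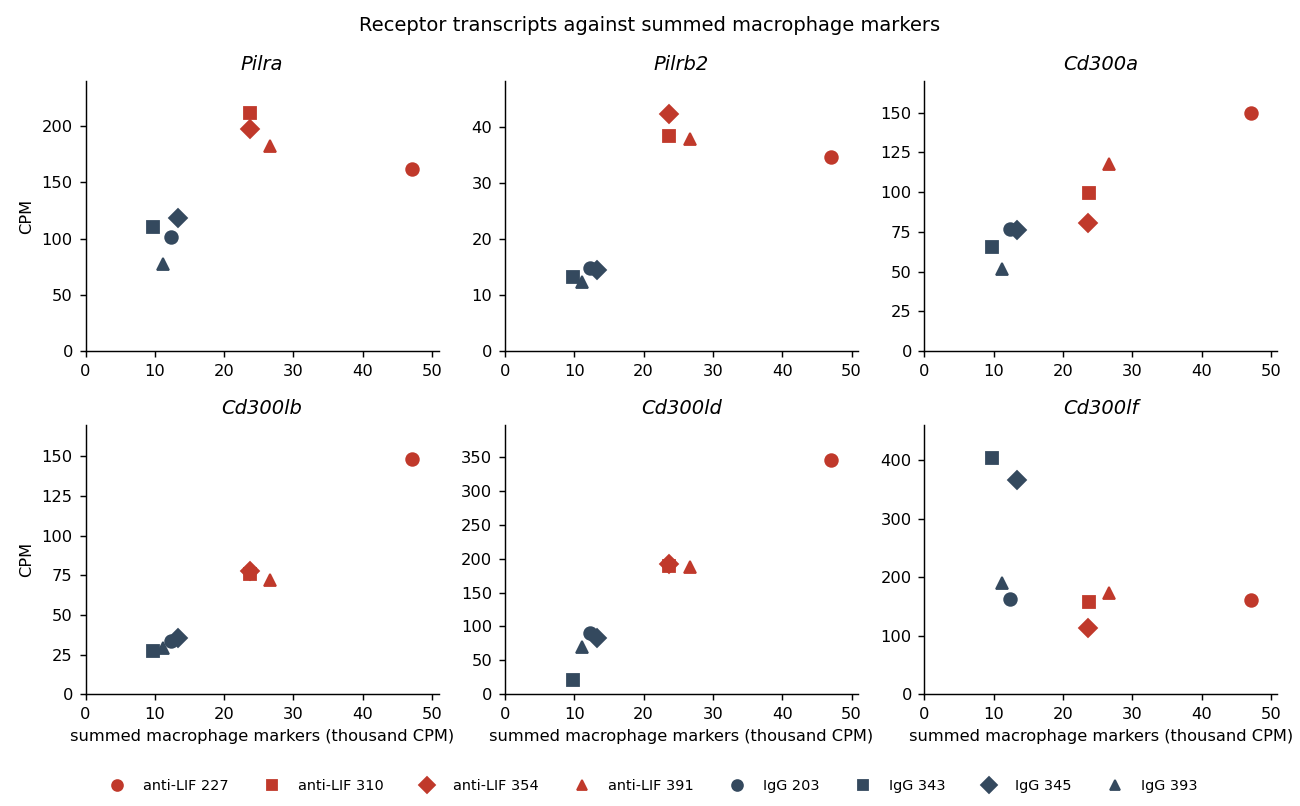
Each panel plots 1 of 6 receptors in CPM (y axis, from 0) against the summed CPM of 16 macrophage markers in units of 1000 CPM (x axis, from 0), 1 point per mouse. KPCL-PCC_227_GA, at 47100 CPM of markers, is the highest anti-LIF library for Cd300a, Cd300lb and Cd300ld and the lowest for Pilra and Pilrb2, and Cd300lf is highest in the 2 IgG libraries with 9793 and 13290 CPM of markers.

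Within the anti-LIF arm, KPCL-PCC_227_GA was high for some receptors and low for others. It had the highest macrophage sum and the highest Cd300a, Cd300lb and Cd300ld, at 149.5, 149 and 344.8 CPM. It also had the lowest Pilra, Pilrb1, Pilrb2 and Cd300e of the arm, at 162, 14.3, 34.6 and 0.511 CPM, and was neither for Cd300lf. Without it, the log2 fold change was 1.26 for Cd300lb and 1.53 for Cd300ld.

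With libraries scaled to the macrophage markers, the median over all tested genes shifted to -1.29, and scaled to the epithelial markers to 1.08. Such a scaling shifts the genes in the same direction by construction, though not all by the same amount. From TMM to the macrophage scaling, Cd300e went from -0.65 to -1.78 and Cd300lb from 1.57 to 0.19. A receptor's TMM value thus largely sets its side of the all-gene median. Cd300lf and Cd300e lay below it, at -2.22 and -1.78 under the macrophage scaling and at 0.17 and 0.36 under the epithelial scaling. The other 6 lay above it, from -0.61 for Cd300a to 0.47 for Cd300ld under the macrophage scaling and from 1.86 for Cd300a to 2.96 for Cd300ld under the epithelial scaling.

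**Figure D4:**
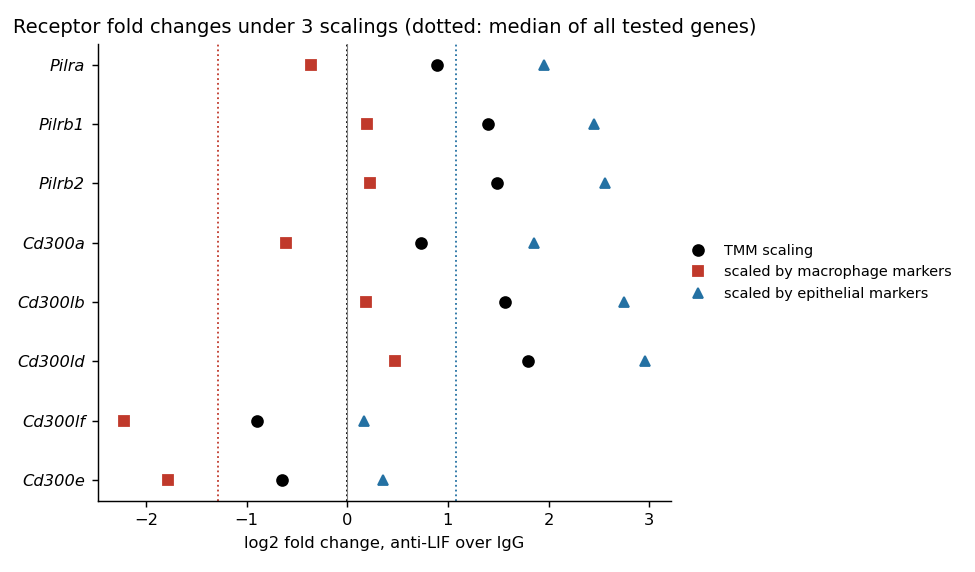
The log2 fold change of anti-LIF over IgG (x axis) is plotted for the 8 receptors under TMM scaling and with libraries scaled to macrophage or to epithelial markers, with a dotted line at the median of all tested genes for each. Pilra and Cd300a lie below 0 under the macrophage scaling, Cd300lf and Cd300e lie above 0 under the epithelial scaling, and under each scaling Cd300lf and Cd300e lie to the left of the dotted line and the other 6 to its right.

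The relatives of the Cd300 genes differed widely in level, and Cd300c2 reached 65.3 FPKM with anti-LIF and 48.6 FPKM with IgG. Of 9 further genes in the table, 5 passed the filter: Cd300c2, Cd300lg and immunoglobulin-type relatives outside the Cd300 genes, among them Pigr and Fcmr. By edgeR's quasi-likelihood test (adjusted p below 0.05), 1 was called higher and 0 lower with anti-LIF, beside 15.7% and 16.5% of all genes. With libraries scaled to the macrophage markers 0 were higher and 1 lower. At an unadjusted p below 0.05 there were 3 higher and 0 lower, and DESeq2 called 3 and 0. The 1 was Cd300lg, a receptor of endothelial cells, with 13.8 ± 7.22 CPM with anti-LIF and 5.78 ± 2.14 CPM with IgG (log2 fold change 1.25 ± 0.41 SE, edgeR adjusted p = 0.0448). It lost its call without KPCL-PCC_227_GA (adjusted p = 0.0818), KPCL-PCC_354_GA (0.115), KPCL-PCC_203_G (0.0791), KPCL-PCC_343_G (0.108) or KPCL-PCC_393_G (0.0999). Cd300c2 had 96.6 ± 17.7 CPM with anti-LIF and 66.4 ± 16.0 CPM with IgG and did not pass (0.54 ± 0.19 SE, edgeR adjusted p = 0.0559); it passed without KPCL-PCC_227_GA (0.0395) or KPCL-PCC_345_G (0.0250). Cd300c, Cd300ld3, Cd300ld4 and Cd300ld5 were below the filter, with 17, 12, 20 and 20 counts in the anti-LIF arm, and Cd300ld4 and Cd300ld5 have the same coordinates and the same values in the table.

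The adaptors and kinases that the activating receptors use were higher with anti-LIF in 15 of 17 cases and lower in 0, with a median log2 fold change of 0.70, although with libraries scaled to the macrophage markers 0 were higher and 11 lower. The calls are edgeR's, and both an unadjusted p below 0.05 and DESeq2 gave 16 higher and 0 lower. Over all genes 15.7% were called higher and 16.5% lower. Tyrobp, which encodes DAP12, the adaptor of Pilrb1, Pilrb2 and Cd300lb, had 874, 590, 622 and 597 CPM in the 4 anti-LIF mice, against 356, 444, 498.5 and 369 CPM in the 4 IgG mice (log2 fold change 0.69, edgeR adjusted p = 0.0162). Fcer1g, which encodes the Fc receptor gamma chain that Cd300ld uses, averaged 454 ± 82.4 CPM with anti-LIF and 257 ± 32.7 CPM with IgG (0.82, edgeR adjusted p = 0.00569). Neither adaptor's arms overlapped, and KPCL-PCC_227_GA was the high library for both. Syk, the kinase that docks on these adaptors, averaged 446 ± 94.2 CPM with anti-LIF and 263 ± 15.0 CPM with IgG (0.76, edgeR adjusted p = 0.00724). The kinase gene Prkcd had the lowest p of the list, with 711 ± 59.7 CPM with anti-LIF and 422.5 ± 21.1 CPM with IgG (0.75, edgeR adjusted p = 0.00317), and Plcg2, Lyn and the linker gene Blnk also rose. Fgr (edgeR adjusted p = 0.0735) and Hcst, which encodes the adaptor DAP10 (5.97 CPM with anti-LIF and 6.18 CPM with IgG, edgeR adjusted p = 0.905), did not pass.

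The phosphatases and negative regulators on which inhibitory receptors act divided more. Of 10, 5 were called higher and 1 lower, with a median log2 fold change of 0.38, beside 15.7% higher and 16.5% lower over all genes. With libraries scaled to the macrophage markers 0 were higher and 7 lower. Ptpn6, which encodes SHP-1, the phosphatase bound by Pilra, Cd300a and Cd300lf, averaged 334.5 ± 58.0 CPM with anti-LIF and 176.5 ± 23.1 CPM with IgG (0.92, edgeR adjusted p = 0.00441). Inpp5d, encoding the lipid phosphatase SHIP1, averaged 369 CPM with anti-LIF and 249 CPM with IgG (0.57, edgeR adjusted p = 0.0144), and Csk, Dok2 and Inppl1 rose as well. Ptpn11, which encodes the broadly expressed SHP-2, had 181 CPM with anti-LIF and 199 CPM with IgG and did not pass (edgeR adjusted p = 0.290). Cblb, a ubiquitin ligase that restrains these pathways, was the 1 that fell (-0.48, edgeR adjusted p = 0.0413), and it lost that call without any 1 of 6 libraries.

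**Figure D5:**
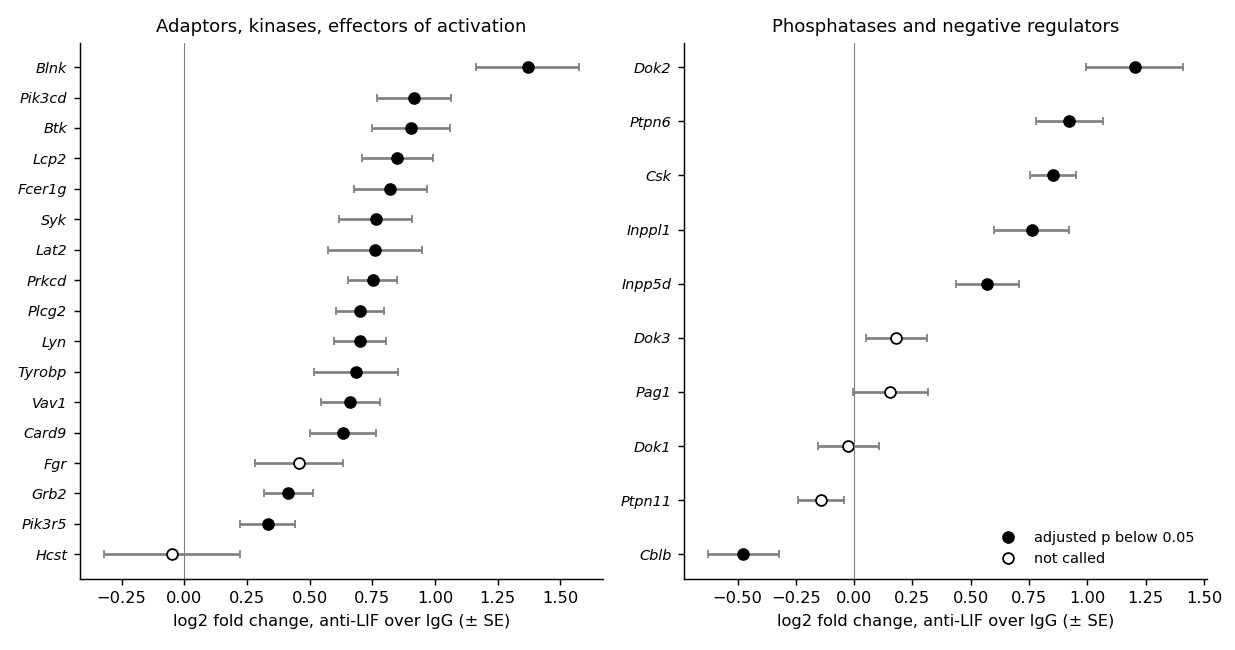
The log2 fold change of anti-LIF over IgG ± SE (x axis) is plotted under TMM scaling for 17 adaptors, kinases and effectors of activation and for 10 phosphatases and negative regulators, filled where the edgeR adjusted p is below 0.05. Of the 17, 15 are filled and to the right of 0, and of the 10, 5 are filled to the right and Cblb to the left. Over all tested genes 15.7% were called higher and 16.5% lower. With libraries scaled to the macrophage markers none of either list was called higher, and 11 and 7 were called lower.

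Genes of protein ligands of the Pilr receptors and of relatives, together called ligand genes here, were few. Of the 4 that the table holds, 3 were tested, and edgeR called 0 higher and 2 lower with anti-LIF. Over all genes it called 15.7% higher and 16.5% lower. With libraries scaled to the epithelial markers 2 ligand genes were higher and 0 lower. Without that scaling the ligand counts were also 0 and 2 at an unadjusted p below 0.05 and by DESeq2. Npdc1, a neural protein that binds Pilra, had 19.0, 31.2, 27.5 and 29.0 CPM in the 4 anti-LIF mice, against 56.5, 49.4, 49.4 and 54.0 CPM in the 4 IgG mice (-0.97, edgeR adjusted p = 0.00426). Cd99l2, a relative of the mouse Pilr ligand CD99, had 35.0 CPM with anti-LIF and 42.7 CPM with IgG on average (-0.29, edgeR adjusted p = 0.0255), and its call was lost without KPCL-PCC_310_GA, KPCL-PCC_354_GA or KPCL-PCC_343_G. Pianp, which encodes a neural ligand of Pilra, did not pass (edgeR adjusted p = 0.537) and was high in 1 mouse of each arm.

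Other immunoglobulin-type receptors of myeloid cells did not share 1 direction. Of the 26 that the table holds, 25 were tested, with 8 higher, 2 lower and a median log2 fold change of 0.30, beside 15.7% higher and 16.5% lower over all genes, and scaled to the macrophage markers 0 were higher and 16 lower. At an unadjusted p below 0.05 there were 13 higher and 3 lower, and DESeq2 called 10 and 3. Pirb, an inhibitory receptor for MHC class I, averaged 322 CPM with anti-LIF and 153 CPM with IgG (1.07, edgeR adjusted p = 0.0124). Siglec1, a sialic acid receptor of macrophages, averaged 585 ± 356.5 CPM with anti-LIF and 206 ± 14.7 CPM with IgG (1.51, edgeR adjusted p = 0.0139). Treml2 had the lowest p of the list, with 35.9 CPM with anti-LIF and 16.5 CPM with IgG (1.12, edgeR adjusted p = 0.00754). The 2 that fell were Treml1, with 0.638 CPM with anti-LIF and 2.19 CPM with IgG (-1.77, edgeR adjusted p = 0.0104), and the ITIM receptor Cd33, with 184 CPM with anti-LIF and 316 CPM with IgG (-0.78, edgeR adjusted p = 0.0143). The abundant inhibitory receptors Sirpa (edgeR adjusted p = 0.0508) and Lilrb4a (0.102) did not pass, but Sirpa passed with DESeq2 (0.00945), with DESeq2's size factors in edgeR (0.0475) and without KPCL-PCC_345_G (0.0441).

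The genes next to the receptors were also read. Within 500000 bases of the 2 clusters, 63 other genes were tested, of which 11 were higher and 8 lower, with a median log2 fold change of 0.094, and scaled to the macrophage markers 1 was higher and 55 lower. Around the Pilr genes 7 of 36 were higher and 6 lower, and around the Cd300 genes 4 of 27 were higher and 2 lower, beside 15.7% and 16.5% over all genes. The neighbour with the highest fold was Nxpe5, beside the Pilr genes, with 112.5 CPM with anti-LIF and 13.1 CPM with IgG (3.10, edgeR adjusted p = 0.00455), and Zan near it was lower (-1.87, edgeR adjusted p = 0.00455).

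The gene most like each receptor was found by the root mean square difference of centred log2 CPM over the 8 libraries, among 13943 genes. Pilra was closest to Wdfy4, at 0.0915, Pilrb2 to Ly86, at 0.117, and Pilrb1 to Tmod4. Cd300a was closest to A230050P20Rik, at 0.0947, Cd300lb to B430306N03Rik, and Cd300lf to Lmln, at 0.126, the highest of these 6. Cd300ld and Cd300e had no gene as near, with Tal1 at 0.229 and A730046J19Rik at 0.372. Ly86 averaged 223 ± 21.6 CPM with anti-LIF and 78.4 ± 15.0 CPM with IgG (SD, n = 4 each). No 2 receptors had the same nearest gene.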

How the data were processed

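The submitters' processing notes name FastQC 0.11.2, STAR 2.4.0k, HOMER and edgeR 3.6.8 and the mm10 build, with no role stated for each tool. Per the file headers, HOMER counted reads over exons and kept 1 transcript per gene. The authors deposited raw counts per gene and FPKM per gene, in 1 table each of 24537 rows. The deposited table also gives each transcript's length, a unit of its own in bases. Of 168000 FPKM values of 21000 transcripts found in both tables, 99.986% equalled the FPKM computed from the count, the length and the library total, within 0.002 FPKM. Library totals were 18954525 to 24681702 per the file headers. The sources state neither strand use nor read length.

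The 8 libraries come from separately dissected mice, 4 in each arm, and the arms share no mouse number. Counts were fitted with R 4.3.3 and edgeR 4.0.16 (TMM, default low-count filter, quasi-likelihood test, Benjamini-Hochberg adjustment over 14711 genes, threshold 0.05), and the script was tested on simulated data. DESeq2 1.42.0, other scalings, another or no filter and leaving out each library were the alternatives. CPM values use the TMM-adjusted library size. The receptors and the gene lists were chosen with earlier results of these data known. Named genes were all 8 receptors and each receptor's nearest gene. In each list, up to 4 called genes with the lowest p were named. Up to 3 uncalled genes with the highest CPM were named too. So were uncalled macrophage markers and genes on which a result turns. The latter are the direct adaptors and phosphatases of the receptors, overlapping genes, and called genes that make up a count of 5 or fewer. Members are compared with no test. Shared windows and coding identity come from GENCODE transcripts, and promoters from RefSeq, in which all 8 genes matched by symbol. Some alleles of the mice and 1 gene of the adaptor list are not reported here. No column of per-sample values was left unused.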

Additional observations from a re-analysis of the deposited data

Results flagged for a closer look

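Of 142 sets of 4 values examined, 12 held a library that stood apart from the other 3 of its arm by Dixon's criterion, and chance alone sets apart about 1 in 20 such sets. Library KPCL-PCC_227_GA of the anti-LIF arm was the library in 9 of the 12. It had 148.6 CPM of Cd300lb, next to 77.67 CPM in the nearest anti-LIF mouse, and 344.8 CPM of Cd300ld, next to 191.8 CPM. Its macrophage marker sum of 47100 CPM was next to 26660 CPM. The same mouse had 874.3 CPM of the adaptor gene Tyrobp (nearest 621.6), 576.9 CPM of Fcer1g (nearest 421.9) and 8.429 CPM of Hcst (nearest 5.44). It also had 58.37 CPM of the ligand gene Pianp (nearest 5.373) and 220.1 CPM of Nxpe5 (nearest 83.42). Its ratio of Cd300c2 to Cd300a, at 2.142, was the lowest of the arm (nearest 4.031). In the same arm, KPCL-PCC_391_GA was lowest for Prkcd, at 622.4 CPM (nearest 730.1). In the IgG arm, KPCL-PCC_203_G was highest for Pianp, at 26.04 CPM (nearest 3.292), and KPCL-PCC_343_G for Cd99l2, at 47.0 CPM (nearest 41.58). What set these libraries apart was not tested.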

How the results depend on the processing

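The receptors' counts carry limits of depth for Cd300e, and of shared sequence for Pilrb1 with Pilrb2 and for Cd300ld with Cd300lf. The 8 receptors kept the sign of their log2 fold changes with DESeq2, with DESeq2's size factors, with library size alone, with another or no filter on low counts, and without any 1 library, where their median was 1.08 to 1.20. Whether the arms overlapped did depend on the measure. From CPM to the deposited FPKM, the arms of Cd300a came to overlap and those of Cd300lf ceased to. No paired analysis was possible because the arms share no mouse and no replicate number.

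Scaling was what changed most. Scaled to the macrophage markers, the receptors' median log2 fold change was -0.0851, with Pilra at -0.36 and Cd300a at -0.61. Other Cd300 relatives were then 0 higher and 1 lower, activating adaptors 0 and 11, inhibitory effectors 0 and 7, other receptors 0 and 16, neighbours 1 and 55, and all genes 144 and 12680. The sign of these named genes turned as well: Cd300c2 -0.69, Cd300lg -0.014, Pigr -0.37, Fcmr -0.072, Lyn -0.60, Fgr -0.76, Plcg2 -0.58, Prkcd -0.53, Ptpn6 -0.39, Inppl1 -0.56, Csk -0.44, Pag1 -1.13, Dok2 -0.073, Dok3 -1.12, Pianp -0.76, Sirpa -0.90, Lilrb4a -1.001, Pirb -0.29, Treml2 -0.18, BC037034 -0.28, Gga3 -0.75, Tyrobp -0.65, Fcer1g -0.51, Syk -0.56, Inpp5d -0.74 and Zcwpw1 -0.71. Scaled to the epithelial markers, the receptors' median was 2.20, with Cd300lf at 0.17 and Cd300e at 0.36. Relatives were then 5 higher, inhibitory effectors 10 higher and 0 lower, ligand genes 2 and 0, other receptors 17 and 0, neighbours 52 and 1, and all genes 11466 and 148. Hcst (1.07), Ptpn11 (0.94), Npdc1 (0.074), Cd99l2 (0.80), Trem1 (0.80), Cblb (0.60) and Cd33 (0.28) turned positive. Both scalings shift the genes in the same direction by construction, though not all by the same amount.

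With library size alone, which moved the median over all genes to -0.16, 0 relatives and 4 neighbours were called higher, and all genes were 1430 higher and 3567 lower, against 2303 and 2428 with TMM, and DESeq2 called 3 relatives higher. For these the cause was not tested. Without 1 library, relatives called higher were 0 to 2, inhibitory effectors called lower 0 to 1, ligand genes called lower 1 to 2, neighbours 4 to 10 higher and 4 to 10 lower, and all genes 1467 to 2218 higher and 1507 to 2136 lower. The all-gene calls were lowest without KPCL-PCC_343_G (1467 and 1507), and without KPCL-PCC_354_GA they were 1521 lower. Fewer samples enter these fits. Pianp was -1.22 without KPCL-PCC_227_GA and 2.59 without KPCL-PCC_203_G, and Hcst, near 0, was 0.027 without KPCL-PCC_310_GA, 0.046 without KPCL-PCC_354_GA, 0.021 without KPCL-PCC_343_G, 0.15 without KPCL-PCC_345_G and lowest, at -0.26, without KPCL-PCC_227_GA.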
